A study of Mus musculus with 2 samples.

Results

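The oligoadenylate synthetase (Oas) family was followed in glomerular RNA of mice with experimental lupus nephritis. Its 8 listed members were Oas1a, Oas1b, Oas1c, Oas1g, Oas2, Oas3, Oasl1 and Oasl2, of 20659 genes that the arrays' RefSeq accessions name. Members were found through those accessions among the gene probes of both scanner files, which gave 9 probes for 7 genes. No probe carried an accession that the gene table assigns to Oas1b, so it has no value here. Probes with accessions outside that table stayed unnamed, so Oas1b may still be on the array. All 9 probes were well above background on both arrays, so no member was lost to a filter on dim signals. The family was picked with the readings of these same arrays in view, so its differences are given as a description.

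RNA came from glomeruli, the tufts of capillaries where the kidney filters blood, taken from male mice at an age of 8 months. Mice of both groups had been given 0.5 ml of pristane, a hydrocarbon oil that induces lupus-like autoimmunity with an interferon response, into the peritoneal cavity, and were followed for 4 months. The WT group carried intact Sirpa, and the Sirpa-/- group lacked Sirpa, an inhibitory receptor of the CD47 ligand, in podocytes by its description. The sample titles name glomeruli and the genotype, but no cell type for the loss. The sources used here give neither the driver of the podocyte deletion nor the number of mice behind each array. The design text names podocytes as the material, whereas labels and protocol name glomeruli. Each group had 1 array, hybridised on a shared slide, so there is no replicate spread, no test between conditions is possible and no p-value is given. Sirpa itself gave 11624 (WT) and 17315 (Sirpa-/-) in processed signal, 1.55-fold higher, which goes against the label. Whether its only probe lies in the deleted part is not known here, and by that description only podocytes lack the gene. Directions below are those of the library labelled Sirpa-/- relative to the library labelled WT. All 8 podocyte markers and all 7 endothelial markers were well above background on both arrays, with Ehd3 of glomerular endothelium at 97942 and 89491 processed signal.

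Oas proteins bind double-stranded RNA and, when active, join ATP into short chains with an unusual linkage, the oligoadenylates. These chains act as second messengers of antiviral defence, at the end of which RNA is degraded and translation slows. Oas genes are induced by type I interferon through the factor ISGF3, which binds a promoter element called the interferon-stimulated response element (ISRE), and they belong to the interferon signature followed in lupus.

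The promoters of the members carry this element in part, and the stretches with a match are shown because 4 members have this feature in common. RefSeq's promoter table (GRCm38.p6) held 6 of the 8 members, as 250 bases before to 50 after the start. Oas2 and Oas1b had no entry, so nothing is known here of their promoters. Both strands were searched for a core of the ISRE (GAAA, any 2 bases, GAAA), and 4 of these 6 held a match. Counted per gene in the same way, 1079 of all 27025 genes (3.99%) had one. So did 11 of 27 other interferon-stimulated genes (40.7%) and 0 of 2 other Oas1 genes. Each line gives the 120 bases just before the start in the direction of transcription, with the matches in capitals; overlapping matches run together.
Oas1a, chr5:120907526-120907645, minus strand: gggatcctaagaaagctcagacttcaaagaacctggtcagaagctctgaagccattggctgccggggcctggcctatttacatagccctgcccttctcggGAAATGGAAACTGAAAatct
Oas1g, chr5:120887614-120887733, minus strand: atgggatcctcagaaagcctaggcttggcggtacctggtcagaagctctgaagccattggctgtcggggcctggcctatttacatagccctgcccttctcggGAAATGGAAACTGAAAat
Oas1c, chr5:120812515-120812634, minus strand: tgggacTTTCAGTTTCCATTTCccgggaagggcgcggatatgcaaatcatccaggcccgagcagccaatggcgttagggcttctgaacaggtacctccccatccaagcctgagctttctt
Oas3, chr5:120777660-120777779, minus strand: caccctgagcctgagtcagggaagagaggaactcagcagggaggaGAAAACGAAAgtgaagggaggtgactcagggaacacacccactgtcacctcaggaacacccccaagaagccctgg

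Oas1a and Oas1g shared the same double match, which began 20 and 18 bases before their starts. Their promoters were 82.8% identical over 256 aligned columns of the 250 bases before the start, against 41.4% to 49.1% for all other pairs of members. In Oas1c the double match lay on the opposite strand and began 114 bases before the start, and in Oas3 a single match began 75 bases before it. The windows of Oasl1 and Oasl2 held no match. A gamma-activated site motif (TTC, any 3 bases, GAA) was found in 1 of the 6 members, Oas1a, with no overlap with the ISRE match. It was found in 2582 of all 27025 genes (9.55%). A match describes letters only, and no binding was measured.

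Values are processed fluorescence intensities as the scanner software gave them. For differences, each array was scaled to the 75th percentile of its gene probes, which was 1157 for WT and 1109 for Sirpa-/-, and log2 differences are Sirpa-/- minus WT. Levels of different probes are not compared, since probes differ in affinity. The only errors at hand are technical. The scanner software's own error amounted to 0.20 on the log2 difference of a bright probe. Probes spotted repeatedly had a median SD of 0.05 between single-spot differences when bright (219 probes at or above the median level) and 0.24 when dimmer (141 probes).

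Oas2, a synthetase with tandem catalytic-type domains that responds strongly to interferon, was higher on the Sirpa-/- array. Its processed signal was 218 for WT and 486 for Sirpa-/-, or 18.8% and 43.8% of the 75th percentile. The median pixel brightness of the spot was 204 and 422 over a local background of 18 on both arrays. This is 2.33-fold higher (log2 difference 1.22, software error 0.20), and 185 of 18239 measured genes (1.01%) differed upward by as much or more. In the authors' deposited table, whose values are log2, the same probe stood at 7.53 and 8.74. Oas2 had 1 probe, so no other probe of the gene checks this value.

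Oas1g, a small synthetase with catalytic activity, gave a larger difference on 1 of its probes and little on the other. On the first it was read at 9.73 on the WT array and 40.3 on the Sirpa-/- array, which is 4.32-fold higher (log2 2.11, software error 0.30). On the other it was read at 9.09 and 10.8, a log2 difference of 0.32 with a software error of 0.35. All of these signals are dim: the pixel brightness was 41 against a background of 17 for the first probe on the WT array and 72 against 17 on the other array. For the second probe it was 41 over 15 and 39 over 15.5. The probes thus lay 1.80 apart on the log2 scale. Among 4561 genes with more than 1 measured probe the median gap was 0.17, and 33 genes (0.724%) had a gap at least as wide. Among the 320 of them whose brightest probe had a mean processed signal under 50, the median gap was 0.35 and 11 genes (3.44%) had one at least as wide. No level for Oas1g as a gene follows from probes that differ this much.

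Oas1a, the neighbouring small synthetase and also catalytically active, was slightly higher on both of its probes. The brighter probe was read at 2559 and 3149 (log2 difference 0.36, 1.28-fold) and the dimmer at 188 and 211 (0.23, 1.17-fold). These lay 0.14 apart, and both lie below 2 times the software error of 0.20. Oas1a and Oas1g are close copies, and the probes may read both, which was not tested.

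Oas1c, a further Oas1 copy, was read at 674 on the WT array and 692 on the Sirpa-/- array, a log2 difference of 0.10. Oas3, the long form and a major source of oligoadenylate, was the only member below 0, read at 54.6 and 41.8 (log2 difference -0.32, software error 0.21). Oas3 is dim, and under another background correction its difference was -0.06. Neither gene moved by more than 2 times the software error. Both promoters above carry an ISRE match, and a link between match and difference was not tested.

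The Oasl members carry ubiquitin-like domains behind the synthetase part. Oasl1, which has no synthetase activity and restrains translation of the interferon regulator Irf7, was read at 1056 and 1301, a log2 difference of 0.36 (1.29-fold). Oasl2, which in mice keeps synthetase activity, was bright on both arrays at 7958 and 8452, with a difference of 0.15 (1.11-fold). Both were higher on the Sirpa-/- array by less than 2 times the software error.

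**Figure D1:**
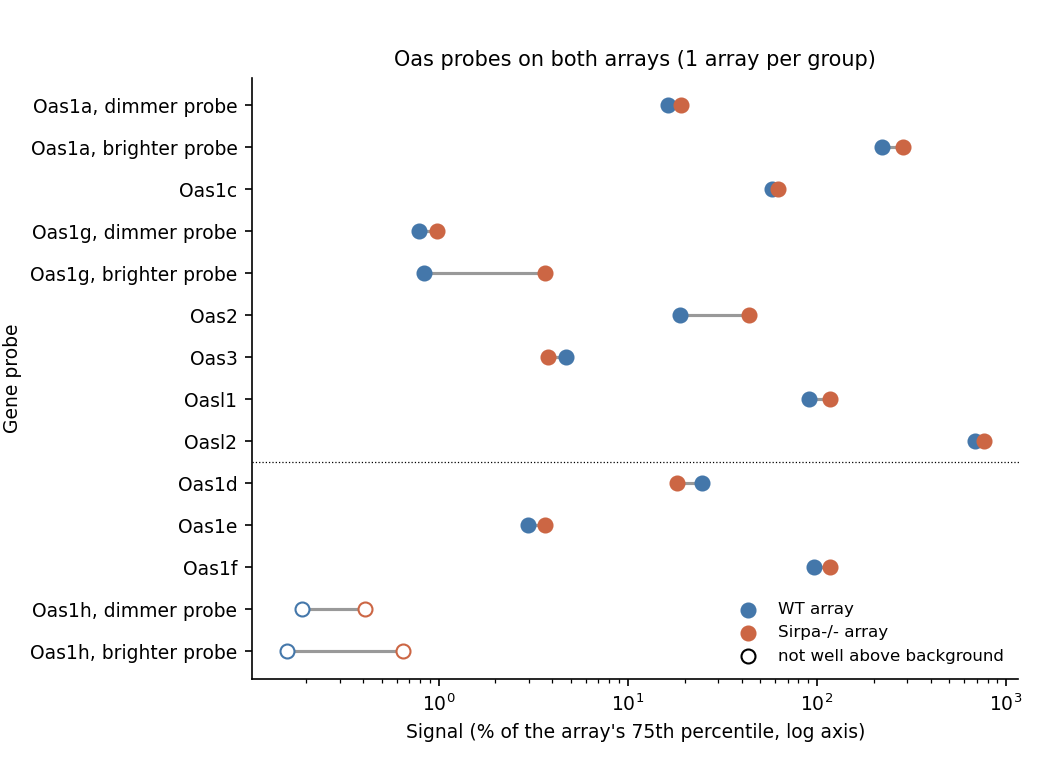
Signal of each Oas probe on the WT and the Sirpa-/- array, in percent of the array's 75th percentile on a log axis, 1 point per array, with the 8-gene family above the dotted line and the other Oas1 genes below. Oas2 (18.8% to 43.8%) and the brighter Oas1g probe (0.84% to 3.64%) show the widest gaps among filled points, and both Oas1h probes are open because they were not well above background.

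Across the family, with each gene read by its brightest probe, 2 of 7 measured members (Oas1g and Oas2) were at least 2-fold higher and 0 were at least 2-fold lower. With the other Oas1g probe (0.32), which was as dim on the WT array, only Oas2 remains. Brightness was the mean over both arrays. For Oas1g the WT readings were alike (9.73 and 9.09), so the Sirpa-/- readings (40.3 and 10.8) decided which probe stood for the gene. Its place in the counts here thus follows from the contrast itself. Over all 18239 measured genes the share was 1.56% higher and 1.67% lower, and 3.35% were higher among the 3816 genes with a mean processed signal under 50, where Oas1g lies. Since the members were chosen on this contrast, nothing is read from the counts and the median given here. The median of the 7 members was 0.36, against 0.00 over all genes, and 6 of 7 lay above 0, against 50.2% of all genes. Differences of more than 2 times the software error upward were found for the same 2 of 7 members, again with Oas1g by its brightest probe, and for 6.72% of all genes, and downward for 0 of 7 members and 8.16% of all genes. At 1.5-fold the count was again 2 higher and 0 lower, against 4.34% and 5.27% of all genes, and at 3-fold it was 1 and 0, resting on 1 probe of Oas1g, against 0.537% and 0.4%. Around the 2-fold line the nearest members were Oas2 at 1.22 inside it and Oasl1 at 0.36 outside it, so Oas2 lay about 1 software error (0.20) above the line of 1. The members Oas1a, Oasl1 and Oasl2, differed by 0.15 to 0.36.

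**Figure D2:**
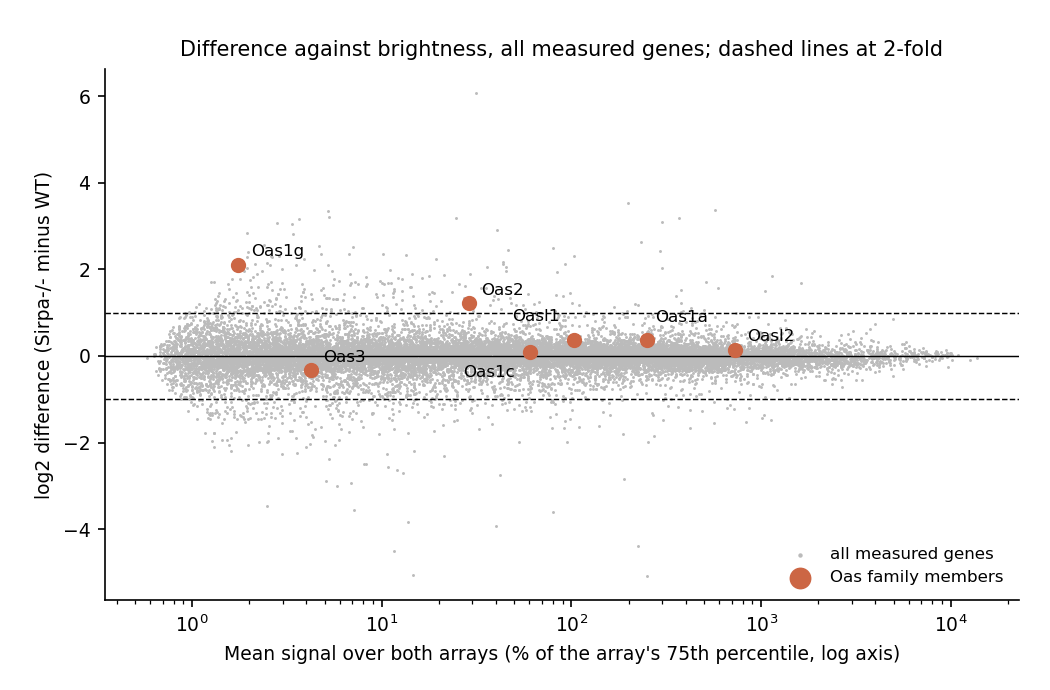
Log2 difference (Sirpa-/- minus WT) of all 18239 measured genes, grey, against their mean signal over both arrays in percent of the 75th percentile on a log axis, with the 7 measured Oas members in colour. Only Oas1g (2.11 by its brightest probe, 0.32 by the other) and Oas2 (1.22) lie outside the dashed 2-fold lines. The grey cloud is wider at the dim end where Oas1g lies.

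The other Oas1 genes of the mouse, which are not members, gave no 2-fold difference where they could be measured. Oas1f was read at 1119 and 1299 (log2 difference 0.28), Oas1e at 34.5 and 40.8 (0.30) and Oas1d at 287 and 203 (-0.44). The difference of Oas1d was 2.16 times its software error of 0.20. Of all genes, 8.16% were lower by more than 2 times the software error. The 2 probes of Oas1h were not well above background on either array, so they give no fold. Oas1d and Oas3 were thus the lower genes of the family in the wider sense, at 1.36-fold and 1.25-fold. With normexp background correction Oas1d stood at -0.19.

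These genes lie side by side. In the annotated order of chromosome 5, 10 Oas genes run from Oas2 through Oas3, Oas1e, Oas1c, Oas1b, Oas1f, Oas1h, Oas1g and Oas1a to Oas1d, while Oasl2 and Oasl1 form a separate pair on the same chromosome. Of the genes next to the cluster, Dtx1, beside Oas2, gave 0.67 at dim signals of 11.1 and 16.8, and Rph3a, beside Oas1d, gave -0.08. Of the 5 neighbours on each side, the differences ran from -0.76 (Cfap73) to 0.67 (Dtx1), and 0 reached 2-fold. Within the cluster, Oas2 (1.22) stands beside Oas3 (-0.32), and Oas1a (0.36) beside Oas1d (-0.44). Oas3 and Oas1a lay within 2 times their software errors of 0.21 and 0.20, so no pattern is read from these signs. Beside the Oasl pair, 4930519G04Rik gave -0.08 and 2210016L21Rik 0.03.

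**Figure D3:**
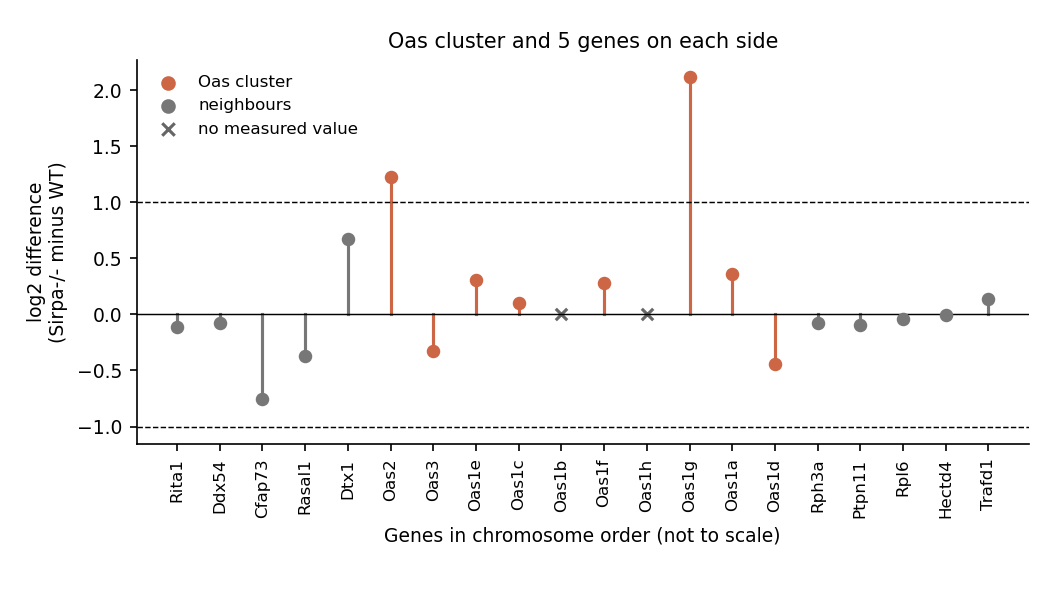
Log2 difference (Sirpa-/- minus WT) of the Oas cluster genes, in colour, and of 5 genes on each side, grey, in chromosome order with spacing not to scale; a cross marks a gene without a measured value. The high values of Oas2 and of Oas1g by its brightest probe (0.32 by the other) stand among genes between -0.76 and 0.67.

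The genes that act on or after the oligoadenylates gave no 2-fold difference on their brightest probes. Of 7 measured genes 0 were at least 2-fold higher or lower, and the median was 0.11. Abce1, a factor of ribosome recycling, was read at 3760 and 3631 (log2 difference 0.01). Of the phosphodiesterases that break oligoadenylates down, Pde12 gave 583 and 612 (0.13), and Akap7 gave 3500 and 3625 on its brightest probe (0.11). Other probes of Akap7 gave 0.24 and -1.51, so its probes disagreed. Cnp, a nucleotide phosphodiesterase best known from myelin, gave 0.37, the helicase gene Dhx36 0.01, and Enpp1, an ectonucleotidase that breaks down cyclic dinucleotides, gave the widest difference among the brightest probes of the list, -0.93 at 81.3 and 40.9.

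The sensors of foreign nucleic acid, which lie upstream of interferon production, were at most modestly different. In the RNA sensing list 0 of 14 genes reached 2-fold either way, 10 lay above 0 and the median was 0.15. Zbp1, a sensor of Z-form nucleic acid, gave 0.71 and 0.51 on its other probe. Tlr7, the endosomal receptor for single-stranded RNA that is tied to lupus, was read at 2988 and 4111 (0.52), with 0.54 on its other probe. Eif2ak2, the kinase PKR, which like Oas proteins binds double-stranded RNA, went the other way at 732 and 524 (-0.42). Of the 5 DNA sensors 0 reached 2-fold either way, with a median of 0.06. Their widest values on the brightest probes were Ifi204 (0.28), Cgas (-0.25) and Samhd1 (0.17). Other probes gave -0.30 and -0.69 for Cgas and 0.37 for Samhd1.

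The machinery that turns interferon into Oas transcription also showed small differences. Of 10 genes of the interferon receptor and ISGF3 list, 0 reached 2-fold, 8 lay above 0 and the median was 0.13. Of the subunits of ISGF3, Stat2 gave 14265 and 12685 (-0.11) and Irf9 8277 and 9390 (0.24). Irf7, the amplifier of interferon production that Oasl1 restrains, gave 96.4 and 134 (0.53), and Irf1 0.17. Of 5 feedback genes, Socs3, an inhibitor of cytokine signalling, was read at 3992 and 7963 and was 2.08-fold higher, while Usp18, the deubiquitinase-like brake on the receptor, gave 0.31 and Irf8 0.34.

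The interferon genes themselves were mostly of type I, with Ifnl3 of type III. By their brightest probes, the measured ones ran from a processed signal of 7.96 on the WT array to 241 on the Sirpa-/- array. Of 14 listed, 10 were measured, 0 reached 2-fold and the median was 0.10. Ifnb1 was read at 7.96 and 8.00, just above the lowest signals well above background of 6.72 and 6.21. Ifnl3 gave the widest difference, 0.96 at 128 and 238, but 0.23 on its other probe. Ifna13 gave 0.62 and Ifna2 0.35. The Ifna genes are near-identical copies, so their probes may read several of them.

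Other interferon-stimulated genes set the Oas values in context. Of 34 listed, 30 were measured, 0 were at least 2-fold higher, 1 was at least 2-fold lower, and 17 of 30 lay above 0, with a median of 0.06. Ifi44 gave the widest difference on the higher side, at 2147 and 3472 (0.76), followed by Ifit2 (0.41). The gene at least 2-fold lower was Xaf1 at -5.08, but its other probe gave 5.25, so it has no direction here; without it the median was 0.08 over 29 genes. Of genes common in interferon signatures, Ifit1 gave 0.18, Ifit3 0.33, Isg15 -0.04, Cxcl10 0.04 and Rsad2 -0.29. These 5 were named after their values were seen. Each value is smaller than 2 times the software error of a bright probe (0.20), so their signs are not read. Ifi44l and Epsti1 were well above background on the Sirpa-/- array only. Ifi44l was read at 2.12 for WT and 33.6 for Sirpa-/-. After scaling, the latter was 5.22-fold above the WT array's dimmest signal well above background. Epsti1 was read at 9.04 and 22.9, a ratio of 2.64 after scaling. Each had 1 probe with dim signals. Because their WT readings failed the background flag, these folds are neither measured differences nor firm lower bounds.

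**Figure D4:**
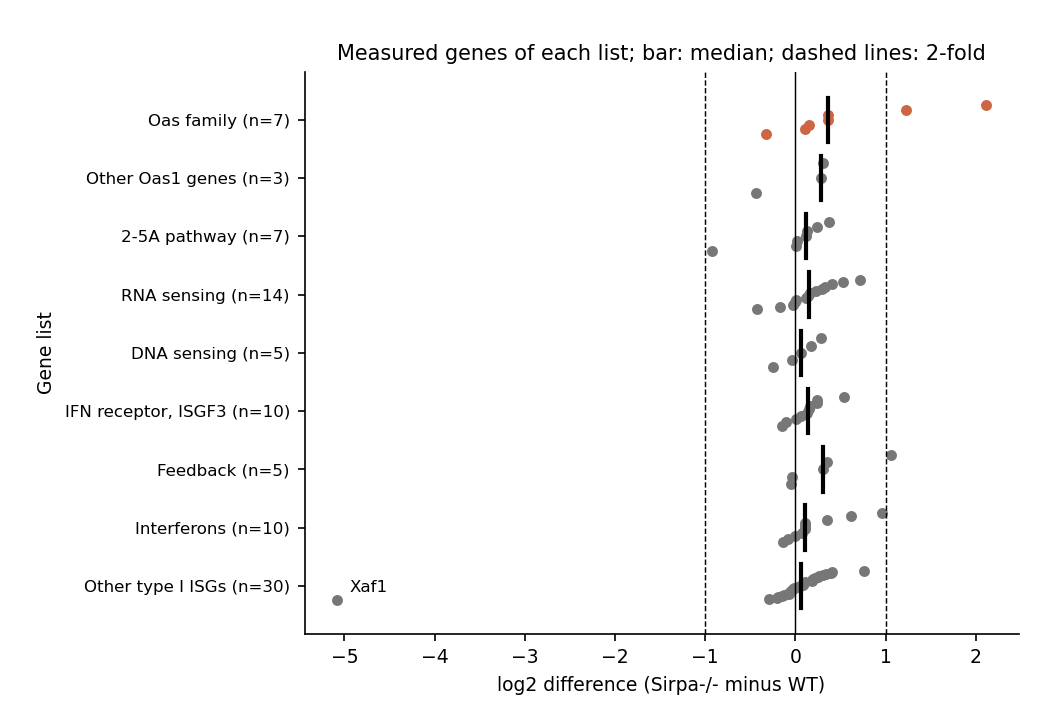
Log2 difference (Sirpa-/- minus WT) of each measured gene of the Oas family and of the related gene lists, 1 point per gene, with the list's median as a bar and dashed lines at 2-fold. The Oas family has a median of 0.36, from which nothing is read because the family was picked with these readings in view. The medians of the other lists lie between 0.06 and 0.31. Xaf1 lies apart at -5.08 with an opposite value on its other probe.

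Markers of blood and immune cells differed between the arrays too, and in bulk RNA more cells of a type and more RNA per cell cannot be told apart. By their brightest probes, all 8 B cell markers were higher on the Sirpa-/- array, and 50.2% of all genes lay above 0. The marker counts here take any sign, however small the difference. Pax5 gave 0.84, but 0.07 on its other probe. The summed signal of the 8 B cell markers was 92.4% of the 75th percentile for WT and 353% for Sirpa-/-. Of these sums Cd22 alone made up 46.3% and 231% of the 75th percentile. Sums of this kind rest mostly on the brightest probes of a list. Of the erythroid markers 4 of 5 were higher (sums 1564% and 4788%), and all 5 measured neutrophil markers were (sums 772% and 1071%). Of 7 T and NK cell markers 6 were higher (sums 126% and 144%), and of 5 measured dendritic cell markers 4 (sums 59.3% and 63.4%). Macrophage markers were split, with 2 of 5 higher and 3 lower (sums 1259% and 1377%), and the higher sum rests on Mertk, without which the sums were 489% and 419%. Of the lower markers, Adgre1 gave -0.91 and Csf1r -0.31. Of 5 plasmacytoid dendritic cell markers, the main interferon producers, 3 were higher and 2 lower (sums 3520% and 3251%), and that sum rests on Siglech, read at 40542 and 35783 on one probe and at 25.2 and 22.5 on the other. Without Siglech the sums were 17.1% and 24.3%. Xcr1 of dendritic cells was not well above background on either array, and Cd68, Ly6c2 and Ly6g had no named probe. Their part in the Oas2 and Oas1g values was not tested.

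Markers of the kidney's own cells were compared in the same way. The 8 podocyte markers had a median of 0.17 (sums 34574% and 38996%), the 7 endothelial markers -0.07 (23520% and 21867%) and the 6 mesangial markers -0.07 (10170% and 8578%). Proximal tubule markers were all 6 lower, with a median of -0.26 (709% and 505%), and 5 of 6 distal tubule and collecting duct markers were higher, with a median of 1.17 (213% and 394%). The part of these in the Oas values was not tested either.

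Oas1g was the member whose value moved most with the processing. With normexp background correction, which adds an offset of 50 to every signal, Oas1g stood at 0.74 and Oas2 at 1.05, so that Oas2 alone stayed at 2-fold. With the mean of its probes Oas1g stood at 1.21. Under quantile normalization, median centring and loess, and in the authors' deposited table, the 7 members kept their sign and differed by at most 0.03 from the values above.

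**Figure D5:**
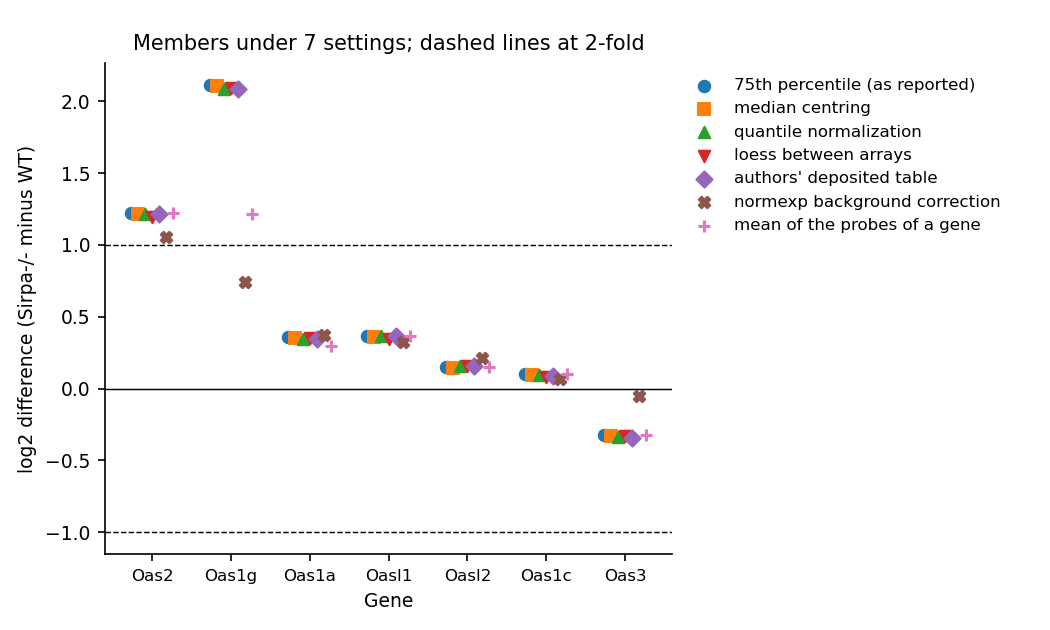
Log2 difference (Sirpa-/- minus WT) of the 7 measured members under 7 settings of the processing, 1 symbol per setting, with dashed lines at 2-fold. Oas2 stays between 1.05 and 1.22, Oas1g spreads from 0.74 to 2.11, and no member crosses 0.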

How the data were processed

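Glomerular RNA of 2 groups with 1 Agilent one-colour array each was compared without a test. The deposited scanner files hold fluorescence intensity per spot, made by the authors with Agilent Feature Extraction 11.0.1.1 per the file headers; the submitters' processing notes name version 9.1. Other deposited columns are control codes and quality flags, per the file headers. The authors' deposited table holds log2 values (39483 probes, medians of 6.50 in both columns), normalized in a way the sources used here do not state. Across probes, each of its columns had r = 0.994 with the scanner values of the same label and 0.986 with the other's.

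Spots without an outlier mark were averaged per probe, and log2 processed signals were centred on each array's 75th percentile over 39429 gene probes. A probe was kept if over 50% of its spots passed the scanner's background flag on each array (85.3% of probes did for WT and 86.7% for Sirpa-/-, and 0 spots were saturated). RefSeq accessions named 27234 probes through the GRCm38.p6 gene table, used for names and gene order only. The probe with the highest mean signal stood for a gene. With 1 array per group, the number of arrays limits the precision. Members and lists were chosen with earlier results of these data known. Named are all members, other Oas1 genes and oligoadenylate pathway genes, and of other pathway lists the 3 widest differences and any at 2-fold; Stat2, Irf1, Ifnb1, Ifit1, Ifit3, Ifit3b, Lgals3bp, Isg15, Rsad2 and Cxcl10 were added after their values were seen. A few genes of these lists enter the counts and medians but are not reported here by name. The calculation was tested on simulated arrays. Python 3.11.15, pandas 2.3.3, R 4.3.3 and limma 3.58.1 were used.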

Additional observations from a re-analysis of the deposited data

How the results depend on the processing

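The median of the 7 measured members ran from 0.29 to 0.36 over the main setting and 8 alternatives: quantile normalization, median centring, loess, normexp, the authors' deposited table, no filter or a stricter filter (a processed signal of 100) on dim probes, and the mean of a gene's probes. The count of members at least 2-fold higher was 2, and it was 1 with normexp, 1 with the stricter filter, which leaves 5 members and drops Oas1g and Oas3, and 1 at a threshold of 3-fold. It was 0 for lower members throughout, also at 1.5-fold. Of the other comparisons with an alternative (single genes and pathway lists), 232 stayed within the technical spread or 1.5 times the count, and 15 moved further. A reversal could be scored only for Oas1g and Oas2, the single genes at 2-fold, and 0 were found. Xaf1, whose probes oppose each other, was not entered as a single gene. The median of the other interferon-stimulated genes without Xaf1 (0.08) and the marker sums without Mertk or Siglech were added after seeing the data. Normexp moved the median of all genes to 0.07, the other settings by at most 0.01. No paired analysis was possible because each group has 1 array. With 1 array a group, no replicate could be left out.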

Other observations

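Several genes near the Oas pathway were not read alike by their probes. Xaf1 was read at 16872 and 477 on one probe and at 34.6 and 1259 on the other, log2 differences of -5.08 and 5.25. Akap7 was read at 1826 and 612 on the probe that gave -1.51, while its other probes differed by 0.11 and 0.24. Tlr7 (0.52 and 0.54), Ifit3b (0.31 and 0.28) and Lgals3bp (0.03 and 0.03) were read alike by both of their probes.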
